A study of Homo sapiens with 6 samples.

Results

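Complement is a set of plasma and membrane proteins that tags and lyses foreign or damaged cells. In the classical pathway the proteases C1R and C1S are activated within the C1 complex and start a cascade, while in the alternative pathway CFB supplies the protease of a convertase, and both routes meet in the cleavage of C3. Host cells restrain the cascade with the membrane proteins CD55, CD46 and CD59 and with the soluble regulators CFI and SERPING1. Complement proteins in plasma come mostly from the liver, but epithelial cells, lung tumour cells among them, also make components and carry the membrane regulators.

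The 9 complement genes described here are 4 components (C3, C1S, C1R and CFB) and 5 regulators (CD55, CD46, CD59, CFI and SERPING1), out of 16306 genes in the deposited gene table. They were found by symbol, and all 9 were in the table. They were chosen by their measured values, since C3 and C1S were known to be among the large rises in shRBM10. Their differences between the groups are therefore a description, and no p-value is given for a member. Members that passed the limits used for all genes are named only beside the share of all genes, and nothing is read from that. Of the 9, 7 passed edgeR's filter on low counts, which kept 12620 genes, and SERPING1 and CFI did not.

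The cells were PC9, an established line from a human lung adenocarcinoma whose EGFR gene carries an activating deletion. RNA was sequenced from PC9 cells with a non-targeting control shRNA (sh-NC, 3 libraries) and from PC9 cells with an shRNA against RBM10 (shRBM10, 3 libraries), an RNA-binding protein that regulates splicing, and no age or time point is given for either group. The study lists more than a single RBM10 shRNA and the labels do not say which was used, so shRBM10 libraries A, B and C may not share an shRNA. Only library A could be matched to a sample title, and B and C were taken as shRBM10 by their column names. The study states in general that its experiments were repeated independently, but neither its text nor the labels tie the RNA-seq libraries to separate cultures, so p-values measure the spread between these samples, which may be technical.

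Library totals were 16606390 to 18864243 estimated counts. Levels below are counts relative to the library total (CPM), adjusted by edgeR's TMM factors, which lay between 1.033 and 1.08 except in sh-NC 2 (0.7382), a library that stood apart from sh-NC 1 and sh-NC 3 (Pearson's r of log2 CPM 0.947 and 0.948, against 0.997 between those 2). Read abundance also followed gene GC content, taken from the longest GENCODE transcript of each gene, differently between libraries. Spearman's rho between a gene's deviation from its mean and its GC content was 0.381 to 0.457 in sh-NC and 0.504 in shRBM10 C, but -0.727 in shRBM10 A and -0.666 in shRBM10 B. RBM10 itself was at 77.9, 64.4 and 80 CPM in sh-NC 1, 2 and 3 and at 29.2, 28.0 and 36.6 CPM in shRBM10 A, B and C, with no overlap (log2 fold change -1.24, SE 0.23, edgeR adjusted p = 0.1; exact two-sided permutation p = 0.1, the smallest that 3 against 3 libraries can give).

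The epithelial character of the cells was checked with markers. All 7 epithelial markers were in the table, and 6 were above the filter. Led by the keratins KRT8, KRT18 and KRT7, they summed to 30000 to 55500 CPM in sh-NC and 24000 to 35500 CPM in shRBM10. Hepatocyte markers, which would go with complement from liver cells, summed to 0.246 to 1.19 CPM in sh-NC and 0.279 to 1.15 CPM in shRBM10 (6 of 7 in the table, 0 above the filter). Leukocyte and macrophage markers summed to 43.7 to 53.7 CPM in sh-NC and to 63.3 to 91.4 CPM in shRBM10 (5 of 7 in the table, led by CSF1R, CD14 and PTPRC, with CD163 and AIF1 not listed), and were thus higher in shRBM10, as the components were. Their part in the results was not tested. Fibroblast markers were at 3.2 to 6.81 CPM and 5.92 to 11.1 CPM (4 of 7 in the table, without PDGFRA, DCN and LUM), and endothelial markers at 38.6 to 51.3 CPM and 30.7 to 52.0 CPM (7 of 7). The protocol in the labels mentions retinas, and of 7 retina markers 4 were in the table, summing to 4.76 to 8.79 CPM in sh-NC and 3.75 to 4.55 CPM in shRBM10. In bulk RNA, fewer cells of a type and less RNA per cell cannot be told apart.

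The 4 components were each higher in every shRBM10 library than in any sh-NC library, by 1.22 to 2.59 times when the lowest shRBM10 library was set against the highest sh-NC library. From the fit, C1S stood at 3.2 times its control level, C3 at 2.97 times, CFB at 2.43 times and C1R at 1.56 times. The membrane regulators were higher on average but overlapped between the groups. SERPING1 was near the detection limit and CFI was essentially not detected.

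C3 is the component on which the pathways converge, and its gene lies on chromosome 19 (6677704-6730562, minus strand, GRCh38), where it overlaps GPR108 on the same strand. C3 was at 27.2, 24.8 and 25.3 CPM in sh-NC 1, 2 and 3 and at 65.7, 66.5 and 97.9 CPM in shRBM10 A, B and C. The groups did not overlap, and shRBM10 C was the highest library. Its mean went from 25.8 ± 1.26 to 76.7 ± 18.4 CPM (SD, n = 3 each). This log2 fold change of 1.57 (SE 0.25) placed C3 at rank 207 of 12620 genes by fold change. Without shRBM10 C the log2 fold change was 1.31, the lowest value on leaving out any library.

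CFB, the serine protease of the alternative pathway convertase, lies in the MHC region of chromosome 6 (31945650-31952084, plus strand) and was the most abundant component. CFB was at 118, 111 and 114 CPM in sh-NC 1, 2 and 3 and at 244, 246 and 347 CPM in shRBM10 A, B and C. Again the groups were apart and shRBM10 C was the highest. Its mean went from 114 ± 3.44 to 279 ± 58.8 CPM (SD, n = 3 each), a log2 fold change of 1.28 (SE 0.23), with rank 617. CFB overlaps C2 and AL645922.1 on the same strand in GENCODE, so counts of these genes may be shared.

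The proteases of the C1 complex, C1S (chromosome 12, 6988259-7071032, plus strand) and C1R (7080199-7092607, minus strand), lie next to each other. C1S was at 15.0, 17.7 and 13.9 CPM in sh-NC 1, 2 and 3 and at 49.4, 45.7 and 53.9 CPM in shRBM10 A, B and C. With no overlap and little spread within a group (15.5 ± 1.92 and 49.7 ± 4.11 CPM, SD, n = 3 each), C1S had the largest fold change of the members tested. Its log2 fold change was 1.68 (SE 0.24), at rank 134 of all genes tested. C1S overlaps EMG1 and LPCAT3, and whether counting used the strand is not given in the sources used here.

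C1R was at 19.3, 21.7 and 19.0 CPM in sh-NC 1, 2 and 3 and at 29.7, 26.5 and 37.2 CPM in shRBM10 A, B and C. These values did not overlap either, although the gap was the narrowest of the 4 components. The mean went from 20 ± 1.48 to 31.1 ± 5.48 CPM (SD, n = 3 each), a log2 fold change of 0.64 (SE 0.25). C1R overlaps its paralog C1RL on the same strand.

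**Figure D1:**
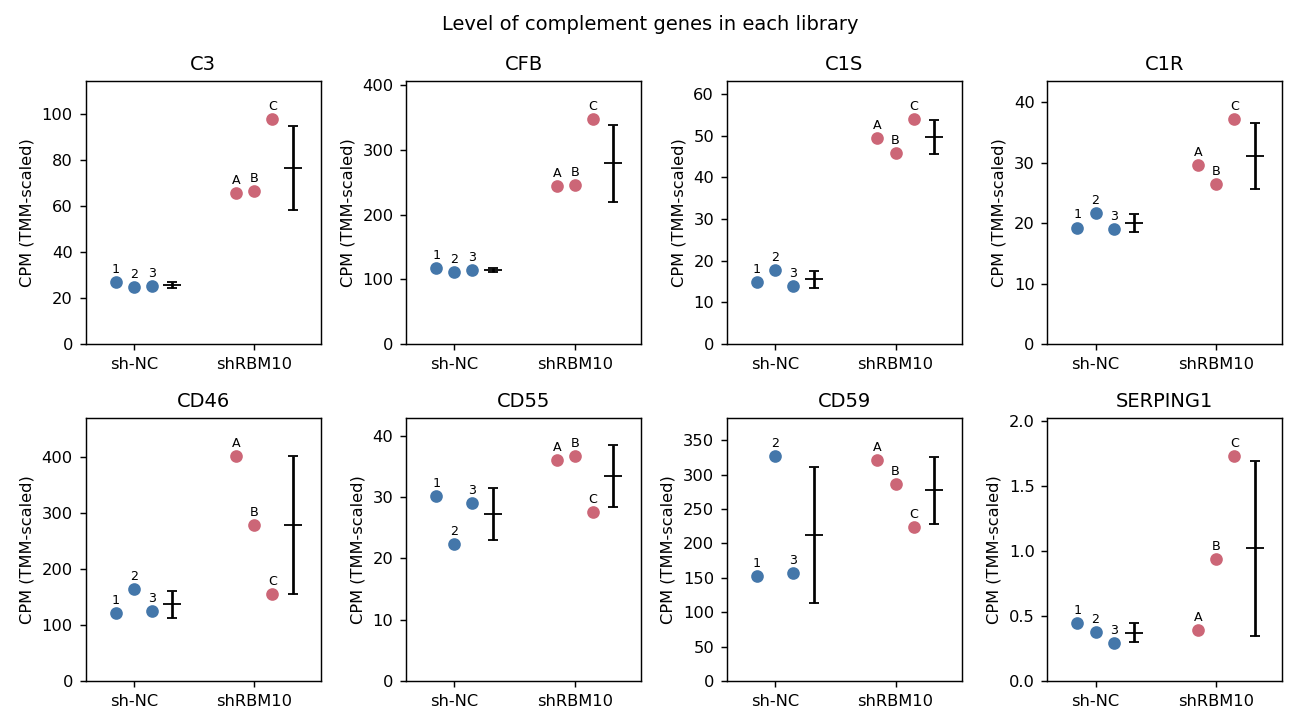
Level of 8 complement genes in each library, in TMM-scaled CPM on linear axes that start at 0. Points are single libraries (sh-NC 1, 2 and 3 and shRBM10 A, B and C) and the black mark is the mean with its SD (n = 3). C3, CFB, C1S and C1R lie higher in every shRBM10 library than in sh-NC, whereas the groups overlap for CD46, CD55, CD59 and SERPING1.

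CD46, a membrane cofactor for the cleavage of C3b and C4b, lies on chromosome 1 (207752057-207795513, plus strand). CD46 was at 121, 164 and 125 CPM in sh-NC 1, 2 and 3 and at 402, 278 and 156 CPM in shRBM10 A, B and C. It was thus highest in A, while shRBM10 C lay below sh-NC 2. Its mean went from 136 ± 23.7 to 279 ± 123 CPM (SD, n = 3 each). The log2 fold change of 1.03 (SE 0.34) went to 0.67 without shRBM10 A, the library with the highest value, and reached 1.28 without shRBM10 C.

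CD55, which speeds the decay of the C3 convertases, is encoded on the same chromosome (207321376-207386804, plus strand). CD55 was at 30.2, 22.3 and 29 CPM in sh-NC 1, 2 and 3 and at 36.1, 36.7 and 27.6 CPM in shRBM10 A, B and C. Libraries A and B were above all sh-NC libraries and C was below sh-NC 1 and 3. The log2 fold change was 0.30 (SE 0.25), and without sh-NC 2 it was 0.09.

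CD59 blocks the assembly of the membrane attack complex and lies on chromosome 11 (33703010-33736491, minus strand), overlapping AL049629.2. CD59 was at 153, 327 and 157 CPM in sh-NC 1, 2 and 3 and at 321, 286 and 224 CPM in shRBM10 A, B and C. All 3 shRBM10 libraries were above sh-NC 1 and 3, and sh-NC 2 was above all of them. The mean was 212 ± 99.0 CPM in sh-NC and 277 ± 49.4 CPM in shRBM10 (SD, n = 3 each). The log2 fold change was 0.38 (SE 0.33), and it was 0.75 without sh-NC 2, 0.19 without sh-NC 1 and 0.21 without sh-NC 3.

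SERPING1, the inhibitor of C1R and C1S (chromosome 11, 57597387-57614853, plus strand), had 9, 5 and 6 counts in sh-NC 1, 2 and 3 and 7, 18 and 33 counts in shRBM10 A, B and C. Its groups overlapped, with the highest value in shRBM10 C, as for the components. CFI, the protease that degrades C3b and C4b (chromosome 4, 109740694-109802179, minus strand), had 0, 0 and 1 counts in sh-NC and 0, 1 and 0 counts in shRBM10. A difference in either gene was not detectable at this depth, and no fold change is given.

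All 7 members tested had a log2 fold change above 0 (median 1.03), while over all 12620 genes tested the median was 0.027, with 6514 above and 6106 below 0. Groups that did not overlap, with shRBM10 higher, were found for 4 members, against 13.8% of all genes (16.2% with shRBM10 lower, and 0 members). At an unadjusted edgeR p under 0.05 with an absolute log2 fold change over 1, C1S, C3, CD46 and CFB passed with higher values, against 10.1% of all genes (1.53% lower, 0 members). This background of 1272 higher and 193 lower genes was 298 higher and 276 lower with the GC trend of each library removed, 424 higher without shRBM10 A and 616 higher without sh-NC 2. At an adjusted p, 2 genes of all those tested were called higher (0.0158%) and 0 lower (0.0%), and none of the members. DESeq2 called 3 members higher, C1S, C3 and CFB, against 3.73% of the 12129 genes with an adjusted p (0.998% lower). The rule that chose the members used this contrast, so nothing is read from these counts.

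**Figure D2:**
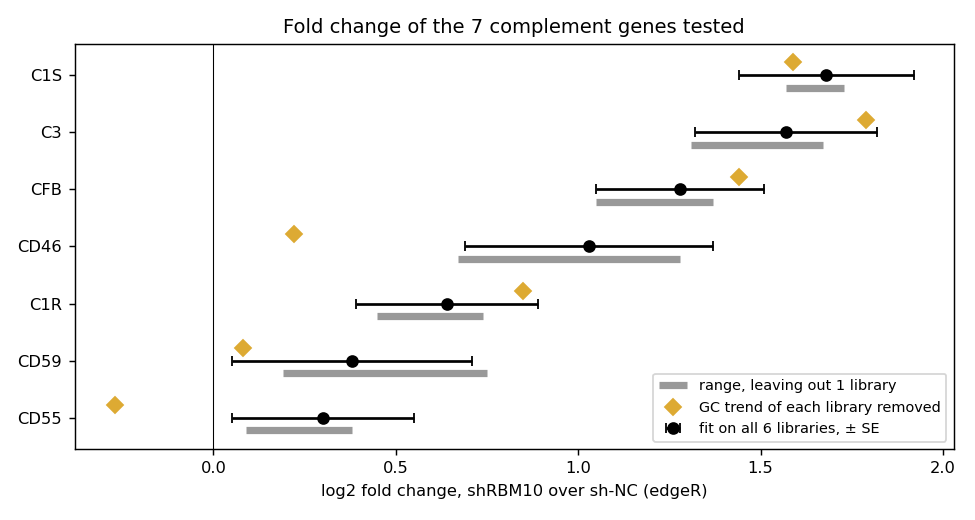
Log2 fold change of shRBM10 over sh-NC for the 7 complement genes tested. Black points are the edgeR fit on all 6 libraries with its SE, grey bars span the values on leaving out a single library, and diamonds are the values after each library's GC trend was removed. C1S, C3, CFB and C1R stay above 0.4 throughout, whereas the diamonds of CD46, CD59 and CD55 lie at 0.22, 0.08 and -0.27.

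The shRBM10 libraries ordered the members in opposite ways. C3, CFB, C1R and C1S were higher in shRBM10 C than in the mean of A and B, with ratios of 1.48, 1.42, 1.32 and 1.13, and SERPING1 had a ratio of 2.59 from few counts. CD55, CD59 and CD46 were lower in C, with ratios of 0.759, 0.736 and 0.459. The genes with ratios above 1 also had the higher GC content, though not in strict order. It was 56.5% for C3, 55.3% for C1R, 53.2% for CFB and 47.9% for C1S, but 45.5% for CD59, 41.4% for CD55 and 37.7% for CD46.

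GC content and gene class, component or membrane regulator, fell together in the members tested. The part of each in these ratios was not tested. When each library's trend on GC content was removed, for the 99.6% of genes with a GC value, the log2 fold changes of the components were 1.79 for C3, 1.59 for C1S, 1.44 for CFB and 0.85 for C1R. Those of the regulators went to 0.22 for CD46, 0.08 for CD59 and -0.27 for CD55, the last with a turned sign. The components were thus higher in shRBM10 with and without this step. For the regulators the size, and for CD55 the sign, depended on it.

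Ratios of counts within a library do not depend on the scaling between libraries. The ratio of C1S to C1R, proteases that act as a pair in the C1 complex, was 0.773, 0.814 and 0.736 in sh-NC 1, 2 and 3 and 1.66, 1.72 and 1.45 in shRBM10 A, B and C. C1S counts were therefore fewer than C1R counts in all 3 control libraries and more numerous in all 3 shRBM10 libraries. C1S and C1R differ in GC content (47.9% and 55.3%), so their ratio also carries the GC trend. Their log2 fold changes were 1.68 and 0.64 in the fit and 1.59 and 0.85 with the trend removed. C3 and CFB, in contrast, moved nearly together. Their ratio was 0.230, 0.223 and 0.222 in sh-NC and 0.269, 0.270 and 0.283 in shRBM10 A, B and C, without overlap but with a smaller shift than in either gene alone. The ratio of CFB to the regulator CD46 did not separate the groups. It was 0.979, 0.681 and 0.914 in sh-NC and 0.606, 0.884 and 2.22 in shRBM10 A, B and C, so that it exceeded the control range only in library C. Such a ratio still carries the GC trend, since CFB has 53.2% GC and CD46 37.7%, and the log2 fold changes of CFB and CD46 were 1.28 and 1.03 in the fit but 1.44 and 0.22 with the trend removed.

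**Figure D3:**
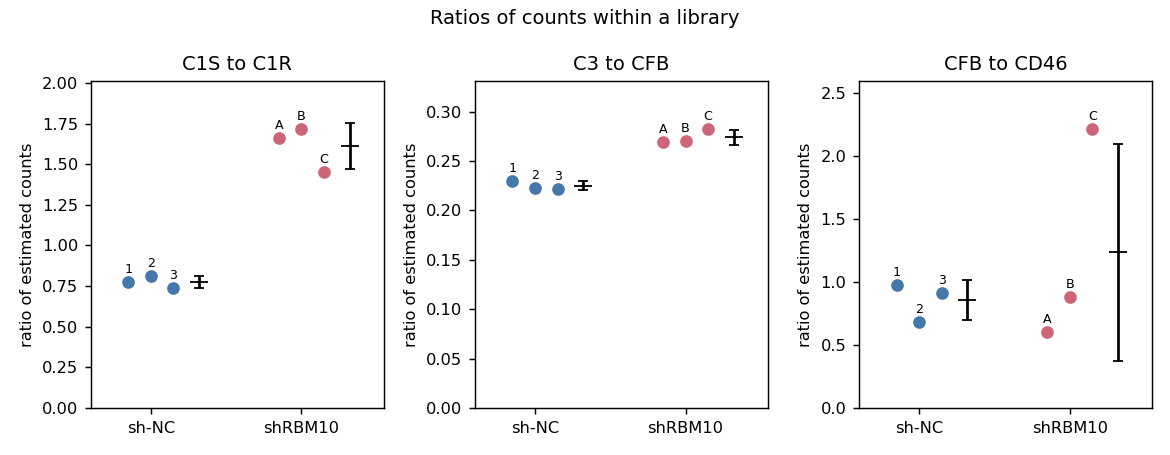
Ratio of the estimated counts of C1S to C1R, C3 to CFB and CFB to CD46 in each library, on linear axes from 0. Points are libraries and black marks are the mean and SD (n = 3). C1S to C1R lies at 0.736 to 0.814 in sh-NC and 1.45 to 1.72 in shRBM10, while CFB to CD46 overlaps except for shRBM10 C at 2.22.

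Across the 6 libraries the components varied together. Pearson's r of log2 CPM was 0.9997 between C3 and CFB, 0.974 between C3 and C1S, 0.955 between C3 and C1R and 0.939 between C1S and C1R. Between the components and the membrane regulators it was 0.246 to 0.730, and between CD55 and CD59 it was 0.046. These libraries share the group difference and the GC trend, so the values only describe them. Of all genes tested, those most like C3 were CFB, the interferon-induced MX1 (r = 0.9963), HHIPL2 (0.9935), the integrin subunit ITGA11 (0.9919) and SLC22A31 (0.9892). Those most like C1S were IGSF1 (0.9939), the natriuretic peptide receptor NPR2 (0.9930), the prolyl hydroxylase EGLN3 (0.9928), the interferon-induced MX2 (0.9906) and CD24 (0.9897).

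Levels between genes were compared per length, in the authors' TPM. In the authors' sh-NC means the order was CFB (62.7 TPM), CD46 (49.3), CD59 (29.1), CD55 (18.3), C1R (9.92), C1S (6.81), C3 (5.88), SERPING1 (0.263) and CFI (0.0133). Over the sh-NC libraries the ranges of CFB and CD46 overlapped (35.6 to 78.3 and 37.0 to 56.8 TPM), as did those of CD55 and C1R (9.41 to 22.9 and 6.59 to 11.6 TPM), of C1R and C1S, and of C1S and C3, whereas CD46 and CD59, and CD59 and CD55, did not overlap. In the authors' shRBM10 means the order was CFB (174 TPM), CD46 (122), CD59 (49.0), C1S (25.6), CD55 (23.2), C3 (19.8) and C1R (18.0), with SERPING1 at 0.817 and CFI at 0.0167. C1S and C3 thus lay above C1R in these means, although in library A C3 was at 18.0 TPM and C1R at 18.2 TPM. Only library A is given singly on this scale, with CD46 at 183 TPM above CFB at 161 TPM, and single TPM values of B and C were not used. TPM carries no TMM scaling, and sh-NC 2 gave the lowest sh-NC value for 6 of the 7 members tested, CD59 being the exception, for example 3.36 for C3 against 7.34 and 6.93 in sh-NC 1 and 3.

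Transcript estimates were used to ask which forms of the members were made. The share of a gene's counts held by a transcript does not depend on the gene's level, although it comes from the same libraries. Of 9 transcripts of C1S, CD46, CD55 and CD59 with at least 10% of their gene's counts, 7 had shares that did not overlap between the groups, against 16.0% of 16726 transcripts filtered alike. The shares of a gene sum to 100%, so transcripts of the same gene are not independent. C3 has a single transcript in the table, and the rows of C1R and of CFB are copies of 1 transcript each, so these genes have no shares to compare.

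CD46 transcripts differ by short exons that encode the part next to the membrane and by an exon of 93 bases (chr1:207790253-207790345, GRCh38, plus strand) that sets the cytoplasmic tail. When this exon is used, translation ends within it, and when it is skipped, translation runs into the last exon. The coding ends of the main transcripts with and without the exon, NM_172351 and NM_153826, are shown because the shift in use falls on this stretch. Small letters are the preceding exon that both share (64 bases) and capitals are the differing coding bases through the stop codon (52 bases with the exon, 73 without), as in GENCODE release 29.
NM_172351, exon used: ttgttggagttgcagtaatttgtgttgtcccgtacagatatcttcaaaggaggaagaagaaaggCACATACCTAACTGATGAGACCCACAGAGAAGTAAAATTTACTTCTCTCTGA
NM_153826, exon skipped: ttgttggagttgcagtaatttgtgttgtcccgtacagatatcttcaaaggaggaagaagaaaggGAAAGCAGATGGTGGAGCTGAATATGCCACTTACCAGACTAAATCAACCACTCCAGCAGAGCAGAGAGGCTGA

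The 93-base exon was used more in shRBM10. Of the counts of CD46 transcripts whose exons could be placed, those with the exon held 32.7%, 30.7% and 29.7% in sh-NC 1, 2 and 3 and 42.2%, 41.5% and 42.4% in shRBM10 A, B and C. The groups did not overlap, and shRBM10 C, which was so different from A and B in the level of CD46, had a share close to theirs. The mean went from 31.1% ± 1.53 to 42.0% ± 0.506 (SD, n = 3 each), a difference of 11.0 percentage points. The 7 transcripts whose exons could be placed held 96.6% to 98.8% of all CD46 counts, and the exon shares here are of their counts. The other alternative exons of CD46 overlapped between the groups. The 45-base exon at chr1:207767779-207767823 was in 76.6%, 72.6% and 76.6% of counts in sh-NC 1, 2 and 3 and in 74.0%, 75.9% and 78.1% in shRBM10 A, B and C, and the 42-base exon at chr1:207770321-207770362 was in 98.9% or more in every library. The remaining 45-base exon, at chr1:207767607-207767651, was in 0.322% to 1.58%.

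By transcript, NM_172351 held 27.6%, 22.1% and 22.6% of all CD46 counts in sh-NC 1, 2 and 3 and 32.3%, 30.4% and 34.3% in shRBM10 A, B and C. NM_153826, which skips the 93-base exon, held 46.9%, 47.7% and 51.4% in sh-NC and 39.3%, 43.6% and 41.8% in shRBM10. NM_172353, which lacks both this exon and the 45-base exons, held 17.8%, 17.8% and 17.0% in sh-NC against 16.8%, 13.8% and 14.2% in shRBM10. The transcript with the exon was thus higher and both without it were lower in every shRBM10 library.

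CD55 counts belonged mostly to NM_000574, the main transcript, at 61.8%, 53.5% and 62.3% in sh-NC 1, 2 and 3 and 75.4%, 67.8% and 62.9% in shRBM10 A, B and C. The predicted transcript XM_017000467 held 29.1%, 36.0% and 29.5% in sh-NC against 13.5%, 24.8% and 21.0% in shRBM10. The groups were apart in both, though for NM_000574 only by the gap between 62.3% and 62.9%. CD59 transcripts NM_000611 and NM_203331 share their coding sequence and differ in exons outside it. NM_203331, with 5 exons against 4, held 34.0%, 28.6% and 33.6% in sh-NC and 36.2%, 36.4% and 36.9% in shRBM10, and NM_000611 moved the other way, from 64.8% ± 3.20 to 61.2% ± 0.476 (SD, n = 3 each). C1S transcripts NM_201442 and NM_001734, which also share their coding sequence, overlapped between the groups. NM_201442 held 74.0% to 86.5% in sh-NC and 84.8% to 89.4% in shRBM10, so the higher level of C1S was made up mostly of this transcript.

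Promoter windows from RefSeq (GRCh38.p14, 250 bases before to 50 after a transcription start) were given for 6 of the 9 members, CFB, C1R, CD46, CD55, CD59 and CFI. They were searched on both strands for the interferon-stimulated response element as GAAANNGAAA, for the STAT-bound GAS element as TTCNNNGAA and for the NF-kB site. The windows shown are those of CFB and C1R, components highest in shRBM10 C, beside those of CD46 and CD59, regulators highest in shRBM10 A, and capitals mark the matches.
CFB, chr6:31945845-31946144, plus strand: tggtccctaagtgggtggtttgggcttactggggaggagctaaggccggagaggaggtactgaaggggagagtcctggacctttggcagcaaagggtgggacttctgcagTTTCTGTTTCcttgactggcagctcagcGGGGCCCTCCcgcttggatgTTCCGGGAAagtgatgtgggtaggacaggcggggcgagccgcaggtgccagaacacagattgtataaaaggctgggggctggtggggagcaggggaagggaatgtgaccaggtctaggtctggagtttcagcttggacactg
C1R, chr12:7091844-7092143, minus strand: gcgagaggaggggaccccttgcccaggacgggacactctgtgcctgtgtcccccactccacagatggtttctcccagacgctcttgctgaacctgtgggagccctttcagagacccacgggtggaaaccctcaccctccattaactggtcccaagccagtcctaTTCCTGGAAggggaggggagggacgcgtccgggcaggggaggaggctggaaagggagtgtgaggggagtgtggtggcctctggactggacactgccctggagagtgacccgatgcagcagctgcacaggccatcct
CD46, chr1:207751788-207752087, plus strand: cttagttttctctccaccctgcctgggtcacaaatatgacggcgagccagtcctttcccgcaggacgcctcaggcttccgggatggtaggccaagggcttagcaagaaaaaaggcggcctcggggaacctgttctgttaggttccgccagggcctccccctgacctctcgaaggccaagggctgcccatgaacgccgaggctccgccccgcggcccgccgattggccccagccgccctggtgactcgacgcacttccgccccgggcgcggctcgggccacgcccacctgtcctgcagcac
CD59, chr11:33736430-33736729, minus strand: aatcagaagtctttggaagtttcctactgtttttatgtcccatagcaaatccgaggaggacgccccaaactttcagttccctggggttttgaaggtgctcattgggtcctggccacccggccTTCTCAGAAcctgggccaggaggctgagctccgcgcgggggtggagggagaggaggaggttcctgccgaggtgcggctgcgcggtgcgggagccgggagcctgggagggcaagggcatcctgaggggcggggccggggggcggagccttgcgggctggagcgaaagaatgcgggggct

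CFB held a match to all 3, TTTCTGTTTC from position -140 to -131 (the response element read on the other strand), GGGGCCCTCC from -112 to -103 (NF-kB) and TTCCGGGAA from -92 to -84 (GAS), counted from the start. They do not overlap. C1R held TTCCTGGAA from -86 to -78 in the second of its windows, and CD59 held TTCTCAGAA from -128 to -120 in the first of its 4 windows. The second CD59 window overlaps the first and held the same letters from -184 to -176. The windows of CD46, CD55 and CFI held none of these letters. Over 35116 promoter windows of the same length, 3.57% held the response element, 7.66% the GAS element and 11.3% the NF-kB site, so a match is a description and not a site.

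Other complement genes were followed by a list made by function. Of 54 genes, 32 were in the table and 14 were tested, with 10 above and 4 below a log2 fold change of 0 and a median of 0.24, against 0.027 for all genes. At an adjusted edgeR p, 0 passed in either direction, also by DESeq2. At an unadjusted p, 4 passed with higher values and 0 with lower ones, where 10.1% and 1.53% of all genes tested passed. C2, C4B and C5 were among them and had few counts. C5, the precursor of the membrane attack complex, was at 1.73, 0.596 and 0.982 CPM in sh-NC 1, 2 and 3 and 5.59, 3.44 and 1.25 CPM in shRBM10 A, B and C (log2 fold change 1.6, SE 0.56, edgeR adjusted p = 0.168), with overlap. The log2 fold change of C5 was 0.84 with the GC trend removed, 1.06 without shRBM10 A, 1.24 without sh-NC 2 and 2.08 without sh-NC 1. C2, the protease of the classical convertase, had a log2 fold change of 1.13 (SE 0.45, adjusted p = 0.182) and C4B 1.36 (SE 0.59, adjusted p = 0.197). C4B shares near-identical sequence with C4A, so the counts of both are uncertain.

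The genes of that list with the largest mean counts had log2 fold changes of either sign. C1RL, the C1R-like protease next to C1R, was at 28.0, 26.5 and 26.6 CPM in sh-NC 1, 2 and 3 and 44.9, 38.8 and 47.4 CPM in shRBM10 A, B and C. These values did not overlap (log2 fold change 0.69, SE 0.22, edgeR adjusted p = 0.156). CFD, the protease that activates CFB, had a log2 fold change of 0.21 (SE 0.36), clusterin (CLU), a fluid-phase inhibitor, 0.07 (SE 0.25), the integrin chain ITGB2 -0.27 (SE 0.26) and the thrombin cofactor THBD -0.74 (SE 0.36). C1QBP, a mitochondrial protein that binds C1q, was at 299, 452 and 290 CPM in sh-NC and 170, 200 and 183 CPM in shRBM10. It was lower in every shRBM10 library (log2 fold change -0.91, SE 0.25, edgeR adjusted p = 0.153). C4A had a log2 fold change of 0.64 (SE 0.96).

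Of 18 acute-phase genes, 14 were in the table and 4 were tested, with a median log2 fold change of 0.33 and 0 called at an adjusted p by edgeR or DESeq2. SAA1, serum amyloid A, was at 0.0494, 0.522 and 0.147 CPM in sh-NC 1, 2 and 3 and 1.40, 1.51 and 1.46 CPM in shRBM10 A, B and C, a log2 fold change of 2.74 (SE 0.59, edgeR adjusted p = 0.128) from few counts, and it was the only list member past the unadjusted limits. The log2 fold change of SAA1 was 3.72 without sh-NC 2 and 2.2 without sh-NC 1, and without sh-NC 2 a single acute-phase gene was called higher by edgeR. LCN2, an iron-binding defence protein, had 0.44 (SE 0.28), SERPINA3 0.21 (SE 0.40) and the pattern-recognition protein PTX3 -0.90 (SE 0.33). PTX3 did not overlap between the groups and was lower in shRBM10.

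Of 18 factors known to act at complement promoters, 16 were in the table and 15 were tested, with a median log2 fold change of 0.11. STAT2, which acts with IRF9 at interferon-stimulated response elements, was at 34.9, 30.9 and 34.7 CPM in sh-NC 1, 2 and 3 and 56.7, 47.2 and 62.3 CPM in shRBM10 A, B and C. Its groups did not overlap (log2 fold change 0.72, SE 0.22, edgeR adjusted p = 0.155). Among the shRBM10 libraries C was the highest for STAT2, as it was for the other factors named in this paragraph. STAT3, IRF1, IRF9 and NFKB2 had 0.14 (SE 0.20), 0.23 (SE 0.25), 0.11 (SE 0.24) and -0.27 (SE 0.22), CEBPB had -0.22 (SE 0.24), and RELA, the NF-kB subunit, had -0.53 (SE 0.23, adjusted p = 0.196), lower in every shRBM10 library.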

How the data were processed

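RNA-seq of PC9 cells was used, with 3 sh-NC and 3 shRBM10 libraries. They were grouped by the GEO labels, except shRBM10 B and C, which were grouped by their column names. The authors deposited estimated counts per gene (87.5% whole) and per RefSeq transcript (41.1% whole) and TPM per gene, with hg38 named in the submitters' processing notes. Aligner, counting tool and strand setting are not given in the sources used here. The labels describe more than a single library kit and assign none to a library. In the table of genes, 14 columns, and in that of transcripts, 18 columns of per-library values were left out, 6 of them in each table because they match no sample title.

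Estimated counts were rounded, filtered (filterByExpr), TMM-scaled and tested with edgeR's quasi-likelihood test (edgeR 4.0.16, limma 3.58.1, R 4.3.3), with Benjamini-Hochberg adjustment over all genes, and called at an adjusted p below 0.05 where the log2 fold change also exceeded 1 in size. The script was tested on simulated data. DESeq2 1.42.0, limma-voom, other scalings and filters, removal of the GC trend and leaving out each library were alternatives. Members and lists were chosen with earlier results of these data known. Named genes were all members, RBM10, up to 8 tested genes with the largest mean count of each list, those past the same limits with an unadjusted p, the 5 genes most like C3 and like C1S (Pearson's r of log2 CPM over 6 libraries), and member transcripts with at least 10% of the gene's counts in a group mean, for genes with at least 50 counts in every library. Coordinates and exons are from GENCODE release 29 (GRCh38). Columns with the authors' group means of TPM were printed as such. Some genes that these rules name are not reported here.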

Additional observations from a re-analysis of the deposited data

How the results depend on the processing

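With edgeR, 2 genes were called higher and 0 lower in shRBM10. DESeq2 called 452 higher and 121 lower, the fit without the low-count filter 21 and 10, and scaling by library size alone 0 higher. On leaving out each library, 0 to 12 were called higher and 0 to 11 lower, with 12 and 11 reached without sh-NC 2. At an unadjusted p, 4 other complement genes passed with higher values. This number was 6 without the low-count filter, 2 with DESeq2, 1 with at least 10 counts in every library and 2 with the GC trend removed. On leaving out each library it was 1 to 3 (1 without sh-NC 1 or without shRBM10 A), and 0 to 1 passed with lower values. The median log2 fold change of the members tested, 1.03, was 1.2 with library size alone, 0.85 with the GC trend removed and 0.67 to 1.1 on leaving out each library. Library size alone moved the median of all genes by 0.13 on the log2 scale. CD55 turned to -0.27 with the GC trend removed. The labels give no replicate number for the columns of shRBM10 B and C. A replicate block by the last letter of the column names, added after seeing the data, called 755 genes higher and 106 lower, and gave a median of 0.94 over the members and 0.30 for CD55. The block with the GC trend removed called 0 genes in either direction, left 2 other complement genes at an unadjusted p, and gave a median of 0.85 over the members and -0.28 for CD55. Deviations of same-letter libraries correlated at 0.377, -0.047 and -0.322, so the letters were not taken as a pairing. Depth limits SERPING1 and CFI, and counts per transcript are estimates.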
